A study of Homo sapiens with 7 samples.

Results

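The interferon response was followed through 36 genes in HCT116 cells, a human colorectal carcinoma line, that lack DROSHA. The genes were chosen by name as interferon-stimulated genes and sensors of foreign RNA. Of the 36, 33 had a read in at least 1 mRNA library, among 15659 gene symbols counted in all. DROSHA is the nuclear enzyme that starts microRNA processing, and its knockout was present in all 6 mRNA libraries. Either a control miRNA or miR-148a-3p was transfected into the cells, with 3 libraries for each, and RNA was taken 48 h later. Both groups share the knockout and the transfection of a small RNA, and no untransfected or interferon-treated cells were analysed here. Whether the knockout line is 1 clone, the amount of miRNA and the identity of the control are not stated in the sources used here.

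Cells detect foreign or unusual RNA in the cytosol through the helicases RIG-I (gene DDX58) and MDA5 (gene IFIH1), which act through the adaptor MAVS to switch on interferon genes. Secreted interferon binds its receptor, and the kinases JAK1 and TYK2 then activate a transcription factor complex that includes STAT2 and IRF9. That complex binds the interferon-stimulated response element (ISRE) in the promoters of many of the genes described here. Transfected RNA can be a ligand of these sensors.

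The transfected microRNA and the response element are the sequences that the comparison and the gene list turn on. The mature miR-148a-3p, from chromosome 7, is shown from RefSeq (GRCh38.p14, chr7:25949922-25949943, minus strand) with its seed, bases 2 to 8, in capitals.
miR-148a-3p: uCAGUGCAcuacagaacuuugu

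RefSeq promoter windows, from 250 bases before to 50 bases after the annotated start, were found for 30 of the 36 genes. The ISRE core was searched on both strands as GAAA, any 2 bases and GAAA, and matches may overlap. It was found in the first listed window of 20 of these 30 genes (66.7%), against 3.65% of the 27305 genes with a window. With every listed start of a gene counted, the numbers were 22 of 30 (73.3%) and 4.38%. These genes are known for that element, so the share describes the list. The excerpts below run from 20 bases before to 20 bases after the matches, on the gene's own strand, with the matches in capitals. A match on the other strand reads TTTC, any 2 bases and TTTC. The first 4 belong to well-read genes, and of these the groups of ISG15 did not overlap. The next 2 belong to genes with fewer reads whose groups did not overlap either. The last 3 belong to genes with at most 1 read in all libraries.
IFITM3 (chr11:320866-320932, minus strand): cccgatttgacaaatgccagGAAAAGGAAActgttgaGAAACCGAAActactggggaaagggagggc
EIF2AK2 (chr2:37156957-37157006, minus strand): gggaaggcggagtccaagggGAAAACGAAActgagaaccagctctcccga
ISG15 (chr1:1013364-1013419, plus strand): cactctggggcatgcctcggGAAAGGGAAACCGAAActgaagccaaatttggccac
DTX3L (chr3:122564312-122564361, plus strand): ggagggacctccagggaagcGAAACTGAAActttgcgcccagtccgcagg
IFIT1 (chr10:89392487-89392549, plus strand): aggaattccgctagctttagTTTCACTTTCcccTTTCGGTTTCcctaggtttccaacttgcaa
IFIT5 (chr10:89414503-89414593, plus strand): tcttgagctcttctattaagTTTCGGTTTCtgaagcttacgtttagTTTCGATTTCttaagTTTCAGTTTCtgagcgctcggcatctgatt
IFITM1 (chr11:313980-314063, plus strand): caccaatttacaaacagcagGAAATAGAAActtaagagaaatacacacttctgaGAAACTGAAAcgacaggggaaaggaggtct
IFI6 (chr1:27672256-27672368, minus strand): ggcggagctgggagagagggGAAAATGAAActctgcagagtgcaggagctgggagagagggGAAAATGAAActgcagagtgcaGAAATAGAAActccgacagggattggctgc
CXCL10 (chr4:76023689-76023738, minus strand): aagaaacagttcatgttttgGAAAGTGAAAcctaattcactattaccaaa

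The match stood both in promoters of well-read genes and in promoters of genes without a read. It was found in 8 of 14 windows of genes that passed the count filter and in 12 of 16 windows of genes that did not. Of 38 matches in these first windows, 37 began before the annotated start, and the one farthest away began 221 bases before it. The gamma-activated site, an element of interferon gamma signalling, was searched as TTC, any 3 bases and GAA, which reads the same on both strands. It was found in 8 of the 30 windows (26.7%), among them those of IRF1, IRF9 and OAS1, against 7.88% of all genes.

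**Figure D1:**
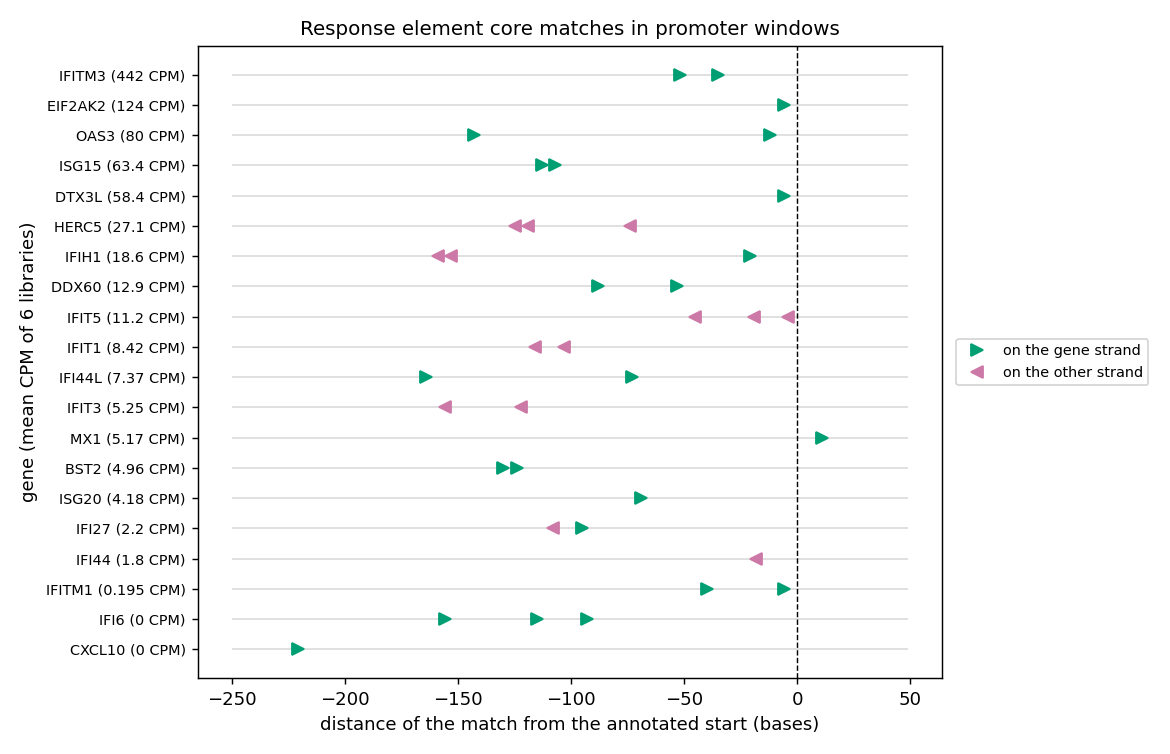
Positions of ISRE core matches in the first RefSeq promoter window of 20 listed genes. The x axis is the distance in bases of the match's first base from the annotated start (dashed line), the y axis orders the genes by mean TMM-normalised CPM over 6 libraries, and the arrow direction gives the strand. Genes at both ends of the order, IFITM3 at 442 CPM and CXCL10 at 0, carry a match.

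Library totals ranged from 630142 to 1564125 counts over 12448 to 13849 genes each. Control replicate 1 and miR-148a-3p replicate 3, the smallest library, lay at opposite ends of the first principal component (−31.4 and 34.2, 29.8% of the variance). Reads of DROSHA numbered 13 to 31 per library; the deleted part is not given, so they do not check the knockout. Of the colon epithelium markers 8 of 11 were read, with sums of 1022 to 2740 counts, while KRT20, CDX1 and CEACAM5 had no read. KRT18 alone gave 594 to 1757 of these counts, and VIL1 and LGALS4 had at most 2 and 1 reads in any library. Leukocyte markers summed to 2 to 10 counts, with 8 of 10 at 0, PTPRC among them. Fibroblast and endothelial markers summed to 28 to 85 counts, of which COL1A1 gave 27 to 83, with COL1A2, DCN, LUM and CDH5 at 0.

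The 36 genes spanned the range from no read to the top of the transcriptome. Levels are TMM-normalised CPM, counts scaled to a common library size. Because the libraries are primed at the poly(A) tail, reads do not scale with transcript length. By the mean of the 6 libraries, 3 genes lay at 100 CPM or more, 14 between 10 and 100, 13 between 1 and 10, and 3 below 1, and 3 had no read. The median of the 33 genes with a read was 10.2 CPM, below the median of 16.3 CPM over all symbols counted. Reads in every library were found for 22 genes, and 11 had reads in some. The count filter kept 15 of the 33 (45.5%), against 57.0% of all symbols.

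The level of the whole list overlapped between the groups. The summed CPM of the 36 genes was 1234, 1164 and 1314 with the control and 1341, 1188 and 1080 with miR-148a-3p. The groups overlapped, with the highest and the lowest sum both among the miR-148a-3p libraries. IFITM3 alone made up 29.9% to 41.8% of the list's reads per library. Without it the sums were 736, 817 and 837 with the control and 780, 762 and 739 with miR-148a-3p, again overlapping. In bulk RNA, fewer cells that express a gene and less of its RNA per cell cannot be told apart.

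No gene of the list passed the threshold (edgeR, adjusted p below 0.05 over all 8921 genes tested, where 1 gene, 0.0112%, passed). Of the 15 tested, 8 were fitted higher and 7 lower after miR-148a-3p, and 50.5% of all genes tested were fitted lower. The split was 6 higher and 9 lower with limma-voom, and 4 and 10 after thinning to the smallest library. It was 5 and 11 without control replicate 3, and 6 and 11 without miR-148a-3p replicate 1. The count filter, run anew after thinning and without a library, kept 14, 16 and 17 listed genes there and not the same 15. The median log2 fold change was 0.013 for the 15 genes and −0.0039 for all genes. At an unadjusted p below 0.05 stood 1 of the 15 (6.67%), PARP9, against 6.79% of all genes. DESeq2 and limma-voom also called 0 of the 15. The groups did not overlap for 2 of the 15 (13.3%), IRF1 on the lower and ISG15 on the higher side, against 12.8% of all genes. In the edgeR fit the list's share lay near that of all genes in each of these counts. For the splits under the other settings the share of all genes was not computed. The filter asks for about 11.3 CPM in 3 libraries. Of the tested genes, 9 met it in 6 of 6 libraries, and 4 (DDX58, IFIH1, STAT2 and PARP9) met it in every control library but not in every miR-148a-3p library.

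**Figure D2:**
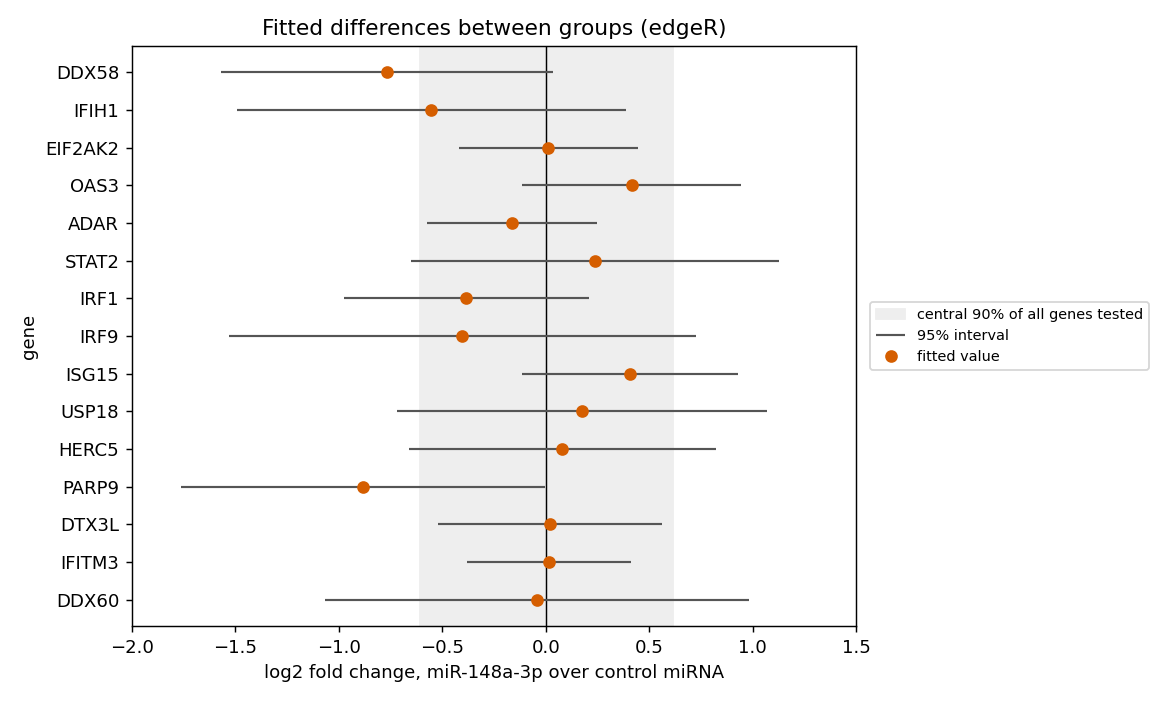
Fitted log2 fold changes of the 15 tested genes, miR-148a-3p over control miRNA, with 95% intervals from the edgeR fit (3 libraries a group). The shaded band holds the central 90% of all 8921 genes, from −0.61 to 0.62; DDX58 (−0.77) and PARP9 (−0.88) lie below it and no gene lies above it.

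The genes are described below by role; the roles were assigned after the read counts had been seen. Both RNA sensors were fitted lower after miR-148a-3p, and neither passed. DDX58, which encodes RIG-I, the sensor of short RNA with a triphosphate end (chromosome 9, 32455302 to 32526196), was at 31.8, 28.0 and 41.0 CPM in control libraries and 21.1, 9.47 and 29.6 CPM in miR-148a-3p libraries. Replicate 2 of the miR-148a-3p group was the lowest library and replicate 3 lay within the control range. The log2 fold change was −0.77 (SE 0.39, 95% interval −1.57 to 0.04, adjusted p = 0.726 by edgeR), and it was −0.44 without miR-148a-3p replicate 2. IFIH1, which encodes MDA5, the sensor of long double-stranded RNA (chromosome 2, 162267074 to 162318684), was at 26.0, 26.8 and 13.7 CPM in control libraries. With miR-148a-3p it was at 11.9, 23.7 and 9.88 CPM, so that the groups overlapped. Its log2 fold change was −0.55 (SE 0.46, 95% interval −1.49 to 0.39, adjusted p = 0.861 by edgeR), and it ranged from −0.99 without miR-148a-3p replicate 2 to −0.36 without miR-148a-3p replicate 1 and was −0.29 after thinning to the smallest library.

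Added together, the sensors had 57.8, 54.8 and 54.6 CPM in control libraries and 33.0, 33.1 and 39.5 CPM in miR-148a-3p libraries. The sums did not overlap, and in the miR-148a-3p libraries a low DDX58 went with a higher IFIH1. The sums rest on 24 to 60 reads per library. How often sums of other genes lie apart was not computed, and the sum is given as a description only. DHX58, the third helicase of this family, was read in 3 of 6 libraries, at a mean of 2.14 CPM.

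Of the 6 genes listed as double-stranded RNA effectors, 3 were tested, and the others were nearly unread. EIF2AK2 encodes PKR, the kinase that halts translation when it binds double-stranded RNA (chromosome 2, 37099210 to 37156980). It was at 118, 135 and 116 CPM in control libraries and 107, 144 and 122 CPM in miR-148a-3p libraries. The groups overlapped throughout, and the gene's span also overlaps GPATCH11, whose reads would not be told apart if strand was not used. The log2 fold change was 0.013 (SE 0.21, 95% interval −0.42 to 0.44, adjusted p = 0.995 by edgeR). ADAR, the editing enzyme that converts adenosine to inosine in double-stranded RNA (chromosome 1, 154582057 to 154627997), was the second most abundant gene of the list. It was at 145, 189 and 218 CPM in control libraries and 173, 161 and 158 CPM in miR-148a-3p libraries, all within the control range. Its log2 fold change was −0.16 (SE 0.20, 95% interval −0.57 to 0.25, adjusted p = 0.911 by edgeR).

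The oligoadenylate synthetases make a messenger molecule when they bind double-stranded RNA, and OAS3 was the one with reads to test. OAS3 (chromosome 12, 112938474 to 112973251) was at 49.1, 94.5 and 61.4 CPM in control libraries and 75.8, 102 and 97.1 CPM in miR-148a-3p libraries. Control replicate 2 lay among the miR-148a-3p libraries. The log2 fold change was 0.42 (SE 0.26, 95% interval −0.11 to 0.95, adjusted p = 0.777 by edgeR), and it ranged from 0.21 without control replicate 1 to 0.72 without control replicate 2. OAS1 and OAS2 flank OAS3 on chromosome 12 and were nearly unread. OAS1 had 0, 7 and 1 reads with the control and 4, 1 and 0 with miR-148a-3p, and OAS2 had 2 reads in all. OASL, a relative without synthetase activity, had 2, 0 and 5 reads with the control and none with miR-148a-3p.

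**Figure D3:**
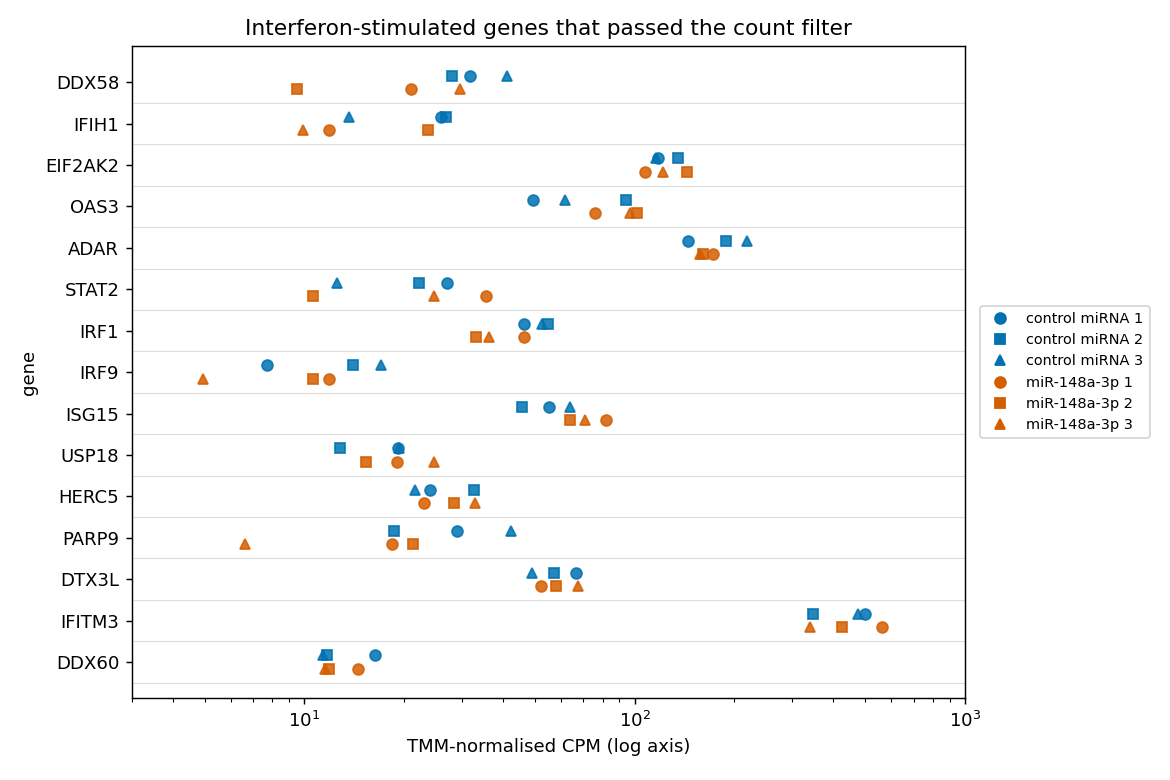
TMM-normalised CPM (log axis) of the 15 genes that passed the count filter, with 1 point per library; blue points are control miRNA, orange points miR-148a-3p, and the shape gives the replicate number. The groups overlap for every gene but IRF1 (33.1 to 46.1 against 46.2 to 54.8 CPM) and ISG15 (63.9 to 81.7 against 45.5 to 63.7 CPM).

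Among the transcription factors, IRF1 was the most abundant. IRF1, which drives both interferon and antigen presentation genes (chromosome 5, 132481609 to 132490773), was at 46.2, 54.8 and 52.3 CPM in control libraries and 46.1, 33.1 and 36.2 CPM in miR-148a-3p libraries. All miR-148a-3p libraries lay below the control libraries, the first of them only just. The log2 fold change was −0.38 (SE 0.29, 95% interval −0.98 to 0.21, adjusted p = 0.832 by edgeR). STAT2, a signal transducer of type I interferon (chromosome 12, 56341597 to 56360107), was at 27.0, 22.2 and 12.5 CPM in control libraries. With miR-148a-3p it was at 35.6, 10.7 and 24.7 CPM, which put both the highest and the lowest library in that group. Its log2 fold change was 0.24 (SE 0.43, adjusted p = 0.940 by edgeR), and −0.27 without miR-148a-3p replicate 1. IRF9, the DNA-binding part of the complex with STAT2, was at 7.71, 14.0 and 17.1 CPM in the control and at 11.9, 10.7 and 4.94 CPM in the miR-148a-3p libraries, in overlap (log2 fold change −0.40, SE 0.55, adjusted p = 0.918 by edgeR). That value ranged from −0.68 without control replicate 1 to −0.16 without control replicate 3. IRF7, which amplifies interferon production, did not pass the filter and had 10, 6 and 10 reads with the control and 23, 4 and 8 with miR-148a-3p.

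The ISG15 system attaches a ubiquitin-like protein to other proteins, and none of its 3 genes passed. The fitted values of all 3 were above 0, that of HERC5 not under every alternative. ISG15, the modifier itself (chromosome 1, 1013497 to 1014540), was at 54.9, 45.5 and 63.7 CPM in control libraries and 81.7, 63.9 and 70.8 CPM in miR-148a-3p libraries. All miR-148a-3p libraries lay above the control libraries, although replicate 2 exceeded the highest control by little. The log2 fold change was 0.41 (SE 0.26, 95% interval −0.12 to 0.93, adjusted p = 0.781 by edgeR). Where a pair of values or triplets follows without a label, the control comes first. USP18, which removes ISG15 and restrains the interferon receptor, was at 19.3, 12.8 and 19.3 CPM and at 19.1, 15.4 and 24.7 CPM (log2 fold change 0.18, SE 0.44, adjusted p = 0.955 by edgeR). HERC5, the ligase that attaches ISG15, was at 24.1, 32.7 and 21.6 CPM and at 23.1, 28.4 and 32.9 CPM (0.08, SE 0.36, adjusted p = 0.979). The HERC5 value was −0.03 without control replicate 3 and without miR-148a-3p replicate 3, and −0.10 after thinning, and the USP18 value was 0.0095 without control replicate 2. Groups overlapped for both. The sum of the 3 genes was 98.2, 91.0 and 105 CPM in control libraries and 124, 108 and 128 CPM in miR-148a-3p libraries, without overlap. ISG15, the most abundant of the 3, lay apart by itself. As for the sensors, how often sums of other genes lie apart was not computed, and the sum is a description only.

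**Figure D4:**
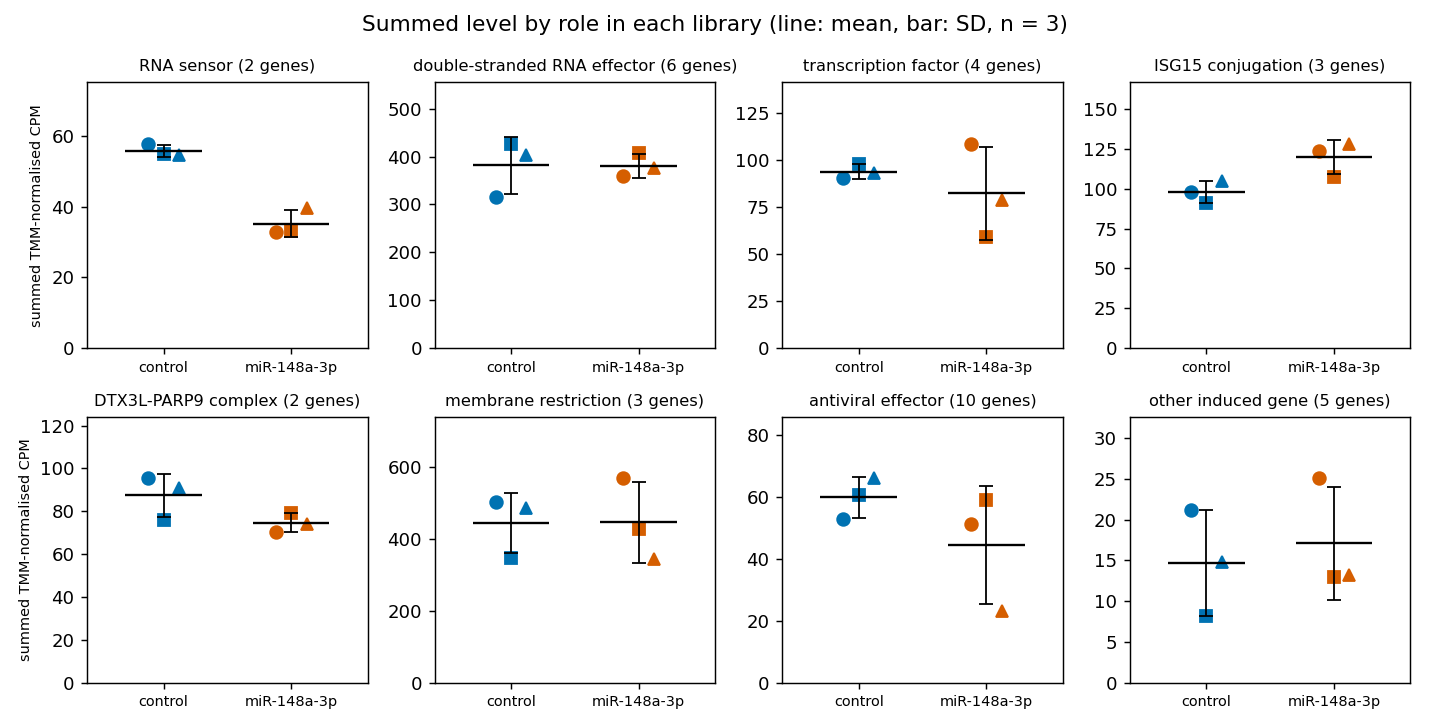
Summed TMM-normalised CPM of the listed genes by role, 1 point per library (blue control miRNA, orange miR-148a-3p), with the mean (line) and SD (bar) of 3 libraries. The RNA sensors (55.7 ± 1.78 against 35.2 ± 3.74 CPM) and the ISG15 system (98.0 ± 6.83 against 120 ± 10.9 CPM) do not overlap, and the other 6 panels do. The sensor sums rest on 24 to 60 reads per library, and the counting error of so few reads is larger than the SDs shown for them. Roles were assigned after the read counts had been seen, and how often other sums lie apart was not computed.

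PARP9 and DTX3L form a complex of an ADP-ribosyltransferase relative and a ubiquitin ligase, and their genes lie head to head on chromosome 3. Their first annotated starts are 446 bases apart, and their spans overlap (122527924 to 122564784 and 122564338 to 122575203). The ISRE of DTX3L printed above also lies in the window of the second listed PARP9 start, although not in that of the first. PARP9 was at 28.9, 18.7 and 42.1 CPM in control libraries and 18.5, 21.3 and 6.59 CPM in miR-148a-3p libraries. The groups overlapped, with replicate 3 of the miR-148a-3p group resting on 4 reads. The log2 fold change was −0.88 (SE 0.43, 95% interval −1.76 to −0.0009, adjusted p = 0.725 by edgeR), the lowest of the 15 tested genes. It was −0.56 without control replicate 3, −0.60 without miR-148a-3p replicate 3 and −0.31 after thinning to the smallest library. DTX3L was at 66.5, 57.2 and 48.9 CPM in control libraries and 52.1, 58.0 and 67.5 CPM in miR-148a-3p libraries, in full overlap. Its log2 fold change was 0.020 (SE 0.26, 95% interval −0.52 to 0.56, adjusted p = 0.995 by edgeR). The difference between the fold changes of PARP9 and DTX3L was not tested.

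IFITM3, which blocks the fusion of viruses in endosomes, was by far the most abundant gene of the list (chromosome 11, 319676 to 320860). It was at 498, 348 and 477 CPM in control libraries and 561, 426 and 341 CPM in miR-148a-3p libraries, and it ranked 321 among all symbols. The groups overlapped, and the log2 fold change was 0.014 (SE 0.19, 95% interval −0.38 to 0.41, adjusted p = 0.995 by edgeR). Its close paralog IFITM2, which is not in the list, was at 378 ± 48.6 CPM in control libraries and 419 ± 115 CPM in miR-148a-3p libraries (SD, n = 3), and reads could be split between the genes. IFITM1, whose annotated start lies 6820 bases from that of IFITM3, had 1 read in all libraries. The virus tether BST2 had 0 to 13 reads per library.

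The antiviral effectors were low, and 1 of the 10 was tested. DDX60, a helicase linked to RIG-I signalling, was at 16.4, 11.7 and 11.4 CPM in control libraries and 14.5, 11.8 and 11.5 CPM in miR-148a-3p libraries, in overlap (log2 fold change −0.04, SE 0.50, adjusted p = 0.993 by edgeR). The IFIT genes, of which IFIT1 and IFIT5 encode proteins that bind viral RNA ends, lie side by side on chromosome 10. IFIT5 had 11, 18 and 15 reads with the control and 12, 6 and 2 with miR-148a-3p, which is 10.6, 21.0 and 17.1 CPM against 7.91, 7.10 and 3.29 CPM. IFIT1 had 10, 10 and 13 reads and 14, 3 and 1 reads, or 9.63, 11.7 and 14.8 CPM against 9.23, 3.55 and 1.65 CPM. For these genes all miR-148a-3p libraries lay below all control libraries, and miR-148a-3p replicate 3 was the lowest. Of the 18 listed genes that had reads but were not tested, they were the 2 without overlap on the lower side (11.1%), with 0 on the higher side. Over all 6738 such symbols the shares were 3.00% and 4.04%, and over all genes tested 6.59% and 6.22%. These shares are not matched for level. A symbol with 0 reads in libraries of both groups cannot lie apart, and IFIT5 and IFIT1 were among the best-read of the 18. The span of LIPA, with 92 reads in all, overlaps the 4 IFIT genes. IFIT2 (1 to 8 reads per library) and IFIT3 (2 to 7) overlapped.

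Without the count filter, 33 listed genes were fitted and 0 passed (18 of 15659 symbols, 0.115%, passed). At an unadjusted p below 0.05 stood 4 of the 33 (12.1%), against 5.74% of all symbols. They were DDX58, PARP9, IFIT5 and OASL, all on the lower side, and the lowest adjusted p of the list was 0.826. In that fit IFIT5 had a log2 fold change of −1.31 (SE 0.61, adjusted p = 0.826 by edgeR). The sum of the 10 antiviral effectors was 53.0, 60.7 and 66.0 CPM in control libraries and 51.4, 59.2 and 23.0 CPM in miR-148a-3p libraries. The low sum came from replicate 3 with 14 reads, the smallest library.

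**Figure D5:**
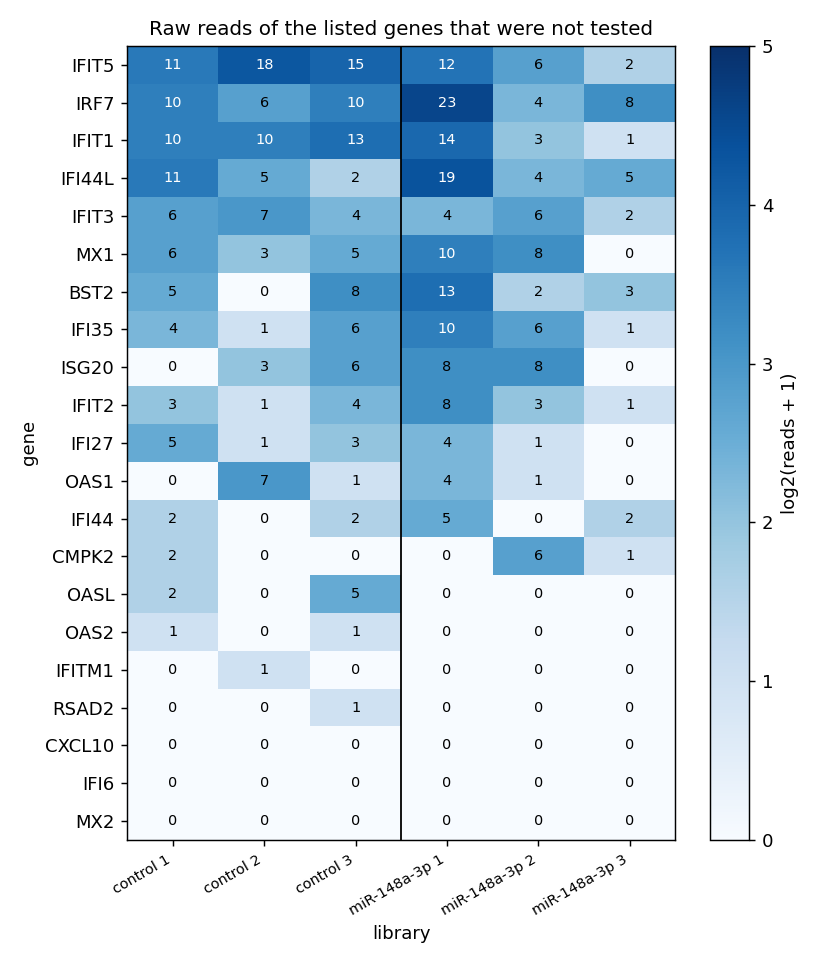
Raw reads of the 21 listed genes that were not tested, as numbers in a grid of genes (rows, ordered by mean CPM) and libraries (columns), with colour giving log2(reads + 1). IFIT5 and IFIT1 show fewer reads in miR-148a-3p replicates 2 and 3 than in the control libraries, and MX2, IFI6 and CXCL10 show 0 in all.

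The remaining effectors and induced genes stood near the limit of these libraries. MX1, a GTPase that traps viral nucleocapsids, had 6, 3 and 5 reads with the control and 10, 8 and 0 with miR-148a-3p. ISG20, an exonuclease, had 0 to 8 reads per library. RSAD2, the antiviral enzyme viperin, had 1 read in all, and CMPK2, a nucleotide kinase whose gene is its head-to-head neighbour 750 bases away, had 9. IFI44L had 11, 5 and 2 reads with the control and 19, 4 and 5 with miR-148a-3p. IFI35, IFI27 and IFI44 had at most 10, 5 and 5 reads in any library. MX2, IFI6 and CXCL10, the chemokine that draws T cells, had no row in any library and were read as 0. The files hold no rows with a count of 0, so a gene without reads and a row left out before deposit cannot be told apart. Over the 18 genes with reads that were not tested, 227 reads fell in the control libraries and 218 in the miR-148a-3p libraries.

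The receptors, kinases and adaptors upstream of the list were mostly read, while the interferon genes themselves were not. A list of 54 receptors, kinases, adaptors, regulators and ligands had 46 genes with a read and 32 tested, of which 0 passed in either direction. Of the 32, 21 were fitted lower and 11 higher, and 2 (6.25%) had an unadjusted p below 0.05, against 6.79% of all genes. The groups did not overlap on the lower side for 4 (12.5%, against 6.59% of all genes), JAK1, PTPN2, PIAS1 and STAU1, and for 0 on the higher side (6.22%).

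Among receptors, kinases and regulators, 13 of 16 tested genes had lower fitted values. JAK1, the kinase bound to the interferon receptors, was at 134 ± 16.8 CPM in control libraries and 93.1 ± 17.6 CPM in miR-148a-3p libraries (SD, n = 3), a log2 fold change of −0.51 (SE 0.22, adjusted p = 0.681 by edgeR). The JAK1 span overlaps that of RAVER2, which had 207 reads in all. Reads in the shared part would not be told apart if strand was not used. PTPN2, a phosphatase that switches off JAK1, was at 58.5 ± 10.0 and 38.5 ± 4.55 CPM (−0.60, SE 0.28, adjusted p = 0.725). PIAS1, a SUMO ligase, was at 59.6 ± 11.7 and 42.1 ± 2.43 CPM (−0.49, SE 0.28, adjusted p = 0.746). IRF2BP2, a corepressor, was at 164 ± 32.5 and 148 ± 20.4 CPM, and SOCS3, a feedback inhibitor of JAK kinases, at 131 ± 79.7 and 132 ± 14.9 CPM.

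Of the sensing and adaptor genes, 8 of 16 tested were lower and 8 higher. MAVS, through which both sensors signal, was at 316 ± 88.9 CPM in control libraries and 340 ± 45.8 CPM in miR-148a-3p libraries (log2 fold change 0.10, SE 0.20, adjusted p = 0.942 by edgeR). DDX3X, a helicase, was at 303 ± 41.9 and 343 ± 31.1 CPM (0.17, SE 0.18, adjusted p = 0.894). STAU1, which binds double-stranded regions of messenger RNA, was at 251 ± 43.6 and 194 ± 18.4 CPM (−0.37, SE 0.19, adjusted p = 0.726). Of the DNA sensing pair, CGAS had no read, and its adaptor STING1 had 2 to 17 reads per library. Of 8 interferon genes, 7 had no read, IFNB1 and IFNL1 among them. IFNE had 6, 0 and 0 reads with the control and 2, 0 and 4 with miR-148a-3p. Its span overlaps that of MIR31HG, which had 82 reads in all.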

How the data were processed

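For 6 oligo-dT primed 3' mRNA libraries the authors deposited unnormalised read counts by gene symbol. Per the submitters' processing notes, cutadapt, STAR, Bowtie2 and GRCh38 were used; their roles, the counter, its annotation and its handling of strand are not stated in the sources used here. Symbols missing from a library's list were read as 0. The wild-type small RNA library holds no gene counts and was not used. The 36 genes and the signalling list were chosen with earlier results of these data known, and every listed gene is accounted for. Of the signalling list, the genes with the highest mean CPM (up to 4 per role) and the 4 with the smallest p were named; STING1, CGAS, DHX58 and the ligands were named after their values were seen. Some genes that this rule picks are not reported here.

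The test was that of edgeR 4.0.16 under R 4.3.3 (TMM, filterByExpr with a count minimum of 10, quasi-likelihood F test, group as the only term), with Benjamini-Hochberg adjustment over all 8921 genes tested. Log2 fold changes are positive where miR-148a-3p was higher, and SE is the fold change divided by the square root of F. Whether replicates were separate cultures is not in the labels, and p-values may thus measure a technical spread between libraries only. Library pairs within a group differed by 2.52 to 5.30 times Poisson variance (chi-square per degree of freedom), and none was counted as a repeat. With 3 against 3, an exact permutation test cannot give p below 0.1, so none was run. Scripts were tested on simulated data. DESeq2 1.42.0, limma-voom (limma 3.58.1), other size factors and filters, thinning, a replicate block and leaving out each library were the alternatives. Gene spans and sequences are from RefSeq on GRCh38.p14.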

Additional observations from a re-analysis of the deposited data

How the results depend on the processing

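None of the 36 listed genes and none of the 54 signalling genes passed under any of 14 alternatives, which tested 14 to 33 listed genes; the lowest adjusted p of a member that the edgeR fit had tested was 0.575. The count over all genes, 1 with edgeR, was 2 with the DESeq2 test, 3 with limma-voom, 18 without the count filter, 3 with the replicate number as a block, 2 after thinning to the smallest library, and 1 to 26 with 1 library left out (26 without control replicate 1, 2 without miR-148a-3p replicate 3). The median log2 fold change of the tested listed genes, 0.013, was −0.097 after thinning and −0.0047 with limma-voom on the same 15 genes. With 1 library left out it was −0.20 to −0.0020, −0.20 without miR-148a-3p replicate 1. The count filter kept 14 listed genes after thinning and 16 to 18 with 1 library left out, so those medians are not over the same 15. The sign of the median is thus not fixed by these data. Of 209 recomputed fold changes of single members, 189 kept their direction and 20, of 6 members with sizes up to 0.24 (EIF2AK2, STAT2, HERC5, DTX3L, IFITM3 and DDX60), took the other sign, none past the threshold. Same-numbered libraries correlated in their deviations from the group means at 0.13, 0.093 and −0.0018, and libraries with unlike numbers at −0.13 to 0.027. Whether same-numbered libraries were paired is not settled by these values. The replicate block called 0 listed genes. Summed levels moved by less than 1 SD. The 95% intervals of the tested genes reach at least 0.41 from 0 on one side, and that of PARP9 reaches −1.76. This limits the differences that these libraries can show. In 5 simulations with these library sizes, edgeR called 3.96% of genes given a true log2 fold change of 0.5 in size. At a true size of 1 it called 36.1%.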
